A study of Mus musculus with 18 samples.

Results

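The 10 proliferation genes Mki67, Top2a, Ccna2, Ccnb1, Cdk1, Birc5, Cenpf, Rrm2, Tpx2 and Ube2c were followed by RNA sequencing in eWAT, the epididymal white fat pad of the mouse, taken whole. They were chosen by symbol as standard markers of dividing cells, and all 10 were among the 16452 genes of the count table. By the labels, the samples are wild-type (WT) male C57BL/6 mice, the Fm generation, described as sired from injected zygotes, which had received let-7d, let-7e or a negative control (treatments IVF_Let7d, IVF_Let7e and IVF_NegativeControl). All groups shared chow until week 6 and then the LFD diet until week 15, and each sample also has an age label of 24 weeks, which the labels do not reconcile with week 15. The count table gave 5 control libraries (replicates 1, 2, 3, 4 and 6), 6 let-7d and 6 let-7e libraries, and control 5 is not analysed here. The labels name no sire or litter for any sample, so p-values measure the spread between these samples only. Each library is RNA of a whole fat pad sample, so fewer dividing cells and less of these transcripts per cell cannot be told apart.

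Cycling cells copy their DNA in S phase and separate it in mitosis, and genes for both steps are transcribed in waves that quiescent cells hold off. Known regulators of these waves are E2F factors, which act on genes of DNA synthesis, and the DREAM and B-Myb-MuvB-FoxM1 complexes. These complexes act on genes of G2 and mitosis through the CHR element. CCAAT boxes are a further element of such promoters and are bound by a separate factor. In adipose tissue, mature adipocytes do not divide, and proliferation is known from adipocyte progenitors, macrophages and endothelial cells. The let-7 family of microRNAs is known for holding back proliferation, with cyclin D, CDC25A, CDK6, MYC and RAS messages among its described targets.

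The molecules named by the treatments are shown first, since they share the seed by which a microRNA pairs with its targets. The labels do not name the arm of the precursor, and the RefSeq sequences of the 5p arms (GRCm38.p6) are given with the seed, bases 2 to 8, in capitals.
mmu-let-7d-5p: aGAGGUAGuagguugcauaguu
mmu-let-7e-5p: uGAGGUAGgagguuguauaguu
The first lies at chr13:48536078-48536099 on the minus strand and the second at chr17:17830366-17830387 on the plus strand. Both are 22 bases long, have the seed GAGGUAG and differ by 3 substitutions outside it, A1U, U9G and C16U, counted from the 5′ end with the base of let-7d first.

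The seed's match CTACCTC was searched on the sense strand of 3′ untranslated regions (UTRs), taking for each gene the GENCODE M21 transcript with the longest coding sequence. It occurred in 2 of the 10 proliferation genes, Birc5 and Rrm2, and in 9.18% of the 13563 measured genes with a 3′ UTR. Each of the 2 held 1 match, shown with its flanks and with the match in capitals.
Birc5 3′ UTR site: gctttaaagtggCTACCTCtcttt
Rrm2 3′ UTR site: aaagctgtgtagCTACCTCagtcc
The matches begin at base 162 of the 3′ UTR of Birc5 and base 130 of that of Rrm2. The other 8 genes held none, although the 3′ UTR of Cdk1 is 3352 bases long. A match here is a run of letters and not a site shown to bind.

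Transcript level is given as CPM, the share of a library's counted reads on the counts-per-million scale, with TMM scaling between libraries. The 10 genes were measured at low levels, from 13 reads (Birc5 in let-7d 5) to 580 reads (Top2a in let-7e 1) in 1 library, so counting error is a visible part of the spread of the lowest ones. Per kilobase of exon, which allows genes to be compared, Ube2c was highest at 2.07 ± 0.985 CPM per kb (SD over the 17 libraries). Rrm2 followed at 1.78 ± 0.931, Top2a at 1.10 ± 0.646, Mki67 at 1.03 ± 0.559, Tpx2 at 1.00 ± 0.475 and Ccna2 at 0.979 ± 0.482 CPM per kb. Birc5 stood at 0.796 ± 0.440, Cdk1 at 0.681 ± 0.389, Ccnb1 at 0.467 ± 0.229 and Cenpf at 0.181 ± 0.104 CPM per kb. By the SD of the higher gene, each gene but the last lay within 1 SD of the one above it in this order. Only Cenpf fell further below its neighbour. The genes moved together over these libraries, as described below, so this SD does not measure whether 2 genes differ within a library. On the CPM scale each gene spanned from 4.18-fold (Ccna2) to 7.34-fold (Birc5) between its lowest and its highest library.

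Mki67 encodes Ki-67, the protein that coats mitotic chromosomes and is the usual stain for cycling cells (GRCm38 chr7:135689784-135716361, minus strand). Its level in controls 1, 2, 3, 4 and 6 was 5.27, 6.40, 5.27, 6.67 and 8.18 CPM. In let-7d libraries 1 to 6 it was 6.39, 11.4, 22.1, 14.4, 6.80 and 10.1 CPM. In let-7e libraries 1 to 6 it was 22.6, 4.84, 14.0, 5.61, 14.7 and 11.6 CPM. The controls lay close together at 6.36 ± 1.20 CPM (SD, n = 5), while both let-7 groups were wide, with let-7d at 11.9 ± 5.83 CPM (SD, n = 6) and let-7e at 12.2 ± 6.58 CPM (SD, n = 6). In each let-7 group 4 of 6 libraries lay above the highest control, and let-7e 2 lay below all controls, so the groups overlapped.

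Of the genes of DNA synthesis, Rrm2 encodes the regulated subunit of ribonucleotide reductase, which makes deoxyribonucleotides (chr12:24708241-24714146, plus strand). It stood at 2.23, 4.09, 7.10, 3.48 and 3.07 CPM in controls 1, 2, 3, 4 and 6, from 3.43 over a median of 4.53 to 8.34 CPM with let-7d, and from 2.43 over 5.15 to 12.6 CPM with let-7e. Rrm2 had its highest control in control 3 and Ube2c in control 4, where the other 8 genes had theirs in control 6. Ccna2, the cyclin A2 of S and G2 phase (chr3:36564865-36572150, minus strand), stood at 2.41, 2.17, 3.17, 3.34 and 4.09 CPM in the controls. It ran from 2.62 over a median of 3.12 to 8.34 CPM with let-7d and from 2.02 over 4.15 to 8.46 CPM with let-7e. Exons of Ccna2 overlap those of Exosc9 on the opposite strand. Since the strand setting of the counting is not given in the sources used here, reads of the pair may be shared. The same limit holds for Ube2c, whose exons overlap those of Tnnc2 on the opposite strand. Exons of Top2a overlap Gm23451, a snoRNA gene on the same strand. Tnnc2 and Gm23451 are not among the genes of the count table.

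Cdk1 encodes the kinase that drives entry into mitosis (chr10:69335146-69352938, minus strand). It stood at 2.35, 1.93, 2.70, 2.25 and 4.54 CPM in controls 1, 2, 3, 4 and 6, from 2.02 over a median of 2.70 to 7.67 CPM with let-7d, and from 1.39 over 3.43 to 7.94 CPM with let-7e. Ccnb1, its partner cyclin B1 (chr13:100778650-100786570, minus strand), stood at 0.974, 0.818, 1.13, 2.25 and 3.03 CPM in the controls. It ran from 1.03 over a median of 1.89 to 4.48 CPM with let-7d and from 1.10 over 1.97 to 2.90 CPM with let-7e. Kinase and cyclin were both highest among the controls in control 6, and for Ccnb1 no let-7e library exceeded that control.

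Top2a, the topoisomerase that untangles sister chromatids (chr11:98992943-99024189, minus strand), stood at 5.56, 6.16, 5.07, 8.27 and 12.4 CPM in controls 1, 2, 3, 4 and 6, from 5.43 over a median of 8.60 to 20.5 CPM with let-7d, and from 3.99 over 11.5 to 25.6 CPM with let-7e. Birc5, or survivin, a subunit of the chromosomal passenger complex (chr11:117849251-117855743, plus strand), stood at 1.66, 1.83, 1.57, 2.25 and 4.58 CPM in the controls. Its range was 0.811 to 5.95 CPM with let-7d (median 2.33) and 1.19 to 4.94 CPM with let-7e (median 2.87). Birc5 had both the widest relative range of the 10 genes and its lowest level in a let-7d library, let-7d 5.

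Cenpf, a protein of the outer kinetochore (chr1:189640606-189688086, minus strand), stood at 1.60, 1.49, 1.03, 2.39 and 4.66 CPM in the controls. It ran from 1.56 over a median of 2.46 to 5.87 CPM with let-7d and from 1.33 over 3.11 to 6.66 CPM with let-7e. Tpx2, which builds spindle microtubules and activates Aurora A (chr2:152847964-152895321, plus strand), stood at 2.06, 3.27, 3.80, 4.42 and 5.97 CPM in the controls, from 2.50 over 3.96 to 8.84 CPM with let-7d and from 2.14 over 5.50 to 9.57 CPM with let-7e. Ube2c, the ubiquitin-conjugating enzyme of the anaphase-promoting complex (chr2:164769898-164778822, plus strand), stood at 1.95, 5.39, 3.50, 5.95 and 4.50 CPM in the controls. It ran from 2.34 over a median of 6.03 to 10.2 CPM with let-7d and from 2.72 over 5.26 to 9.61 CPM with let-7e. The medians of Cenpf, Tpx2 and Ube2c were higher with let-7d and let-7e than with control. For Ccna2 the let-7d median of 3.12 CPM was below the control median of 3.17 CPM. The 3 groups overlapped for each of the 10 genes.

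**Figure D1:**
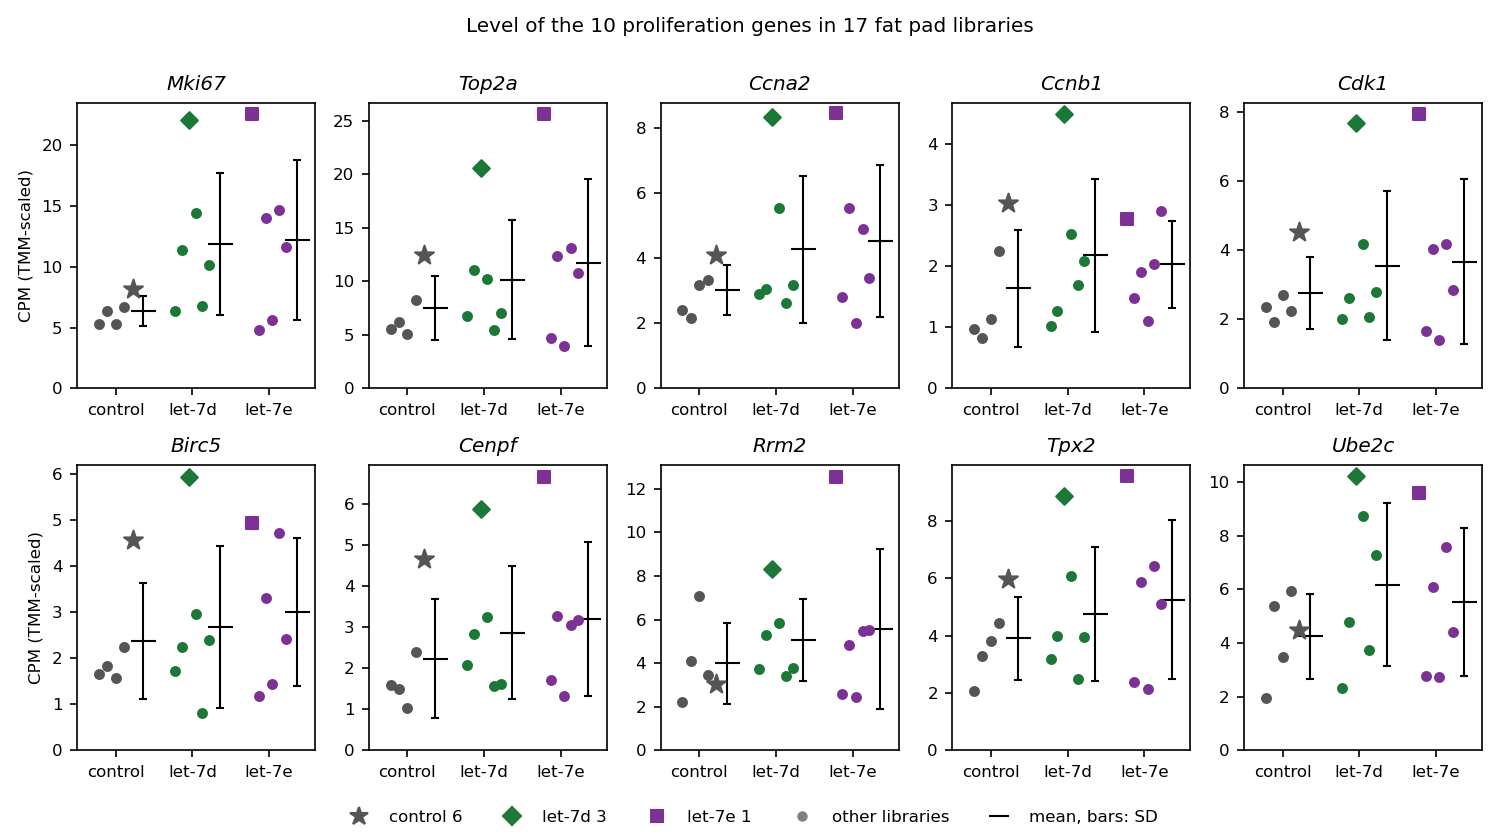
Level of each proliferation gene in CPM (TMM-scaled, vertical axis from 0) in 5 control, 6 let-7d and 6 let-7e libraries, 1 point per library; lines and bars beside the points are group mean and SD. Let-7d 3 (diamond) and let-7e 1 (square) stand over nearly all other libraries, with Mki67 at 22.1 and 22.6 CPM, and control 6 (star) is the highest control for 8 of the 10 genes.

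The 10 genes moved together from library to library, and the same libraries stood at the ends. Let-7d 3 was among the 2 highest of the 17 libraries for 10 of 10 genes and let-7e 1 for 9 of 10, the exception being Ccnb1, where control 6 was second. Let-7e 1 was the highest library for 7 genes and let-7d 3 for the other 3 (Ccnb1, Birc5 and Ube2c). Over all genes measured, these libraries were the highest for 4.53% and 3.81%. At the low end let-7e 4 was among the 3 lowest libraries for 8 of 10 genes, and control 1 and let-7e 2 for 6 each. The let-7e group therefore held libraries from both ends of the range. Let-7d 3 is of the late and let-7e 1 of the early identifier series described below.

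The mean log2 CPM of the 10 genes ran from 1.16 in let-7e 4 to 3.21 in let-7e 1, a range of 2.05. A list of 43 other mitosis genes ranged over 1.71 log2 units across the same libraries. A list of 25 DNA replication genes (the Mcm helicase, Pcna, Tk1 and others) ranged over 0.71, 25 regulators of G1 (D and E cyclins, E2Fs, the retinoblastoma family) over 0.45 and 15 cell cycle inhibitors over 0.73. The spread of the proliferation genes between libraries was thus shared in size by the mitosis list, and the other 3 lists spread less. These are descriptions of the libraries with no test.

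**Figure D2:**
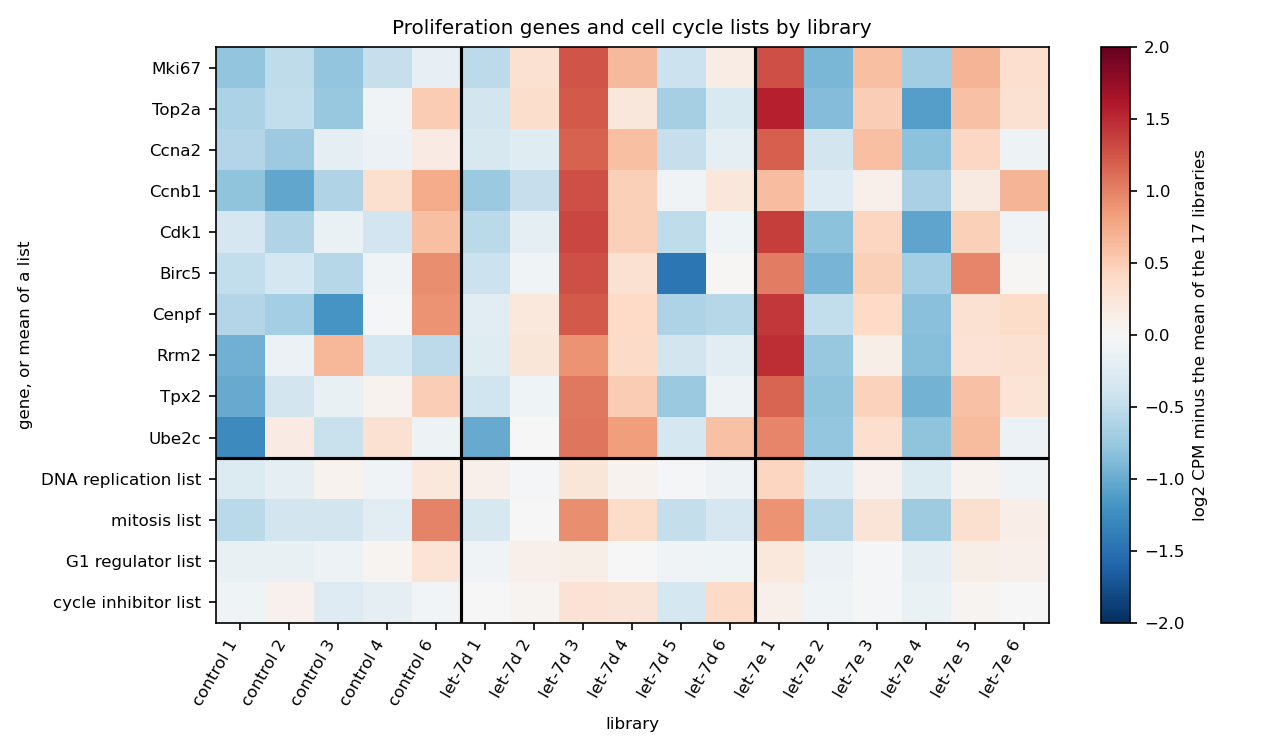
Log2 CPM of each proliferation gene, and the mean of each of 4 cell cycle lists, minus its mean over the 17 libraries (colour, log2 units, red higher); columns are libraries in control, let-7d and let-7e blocks. The columns of let-7d 3 and let-7e 1 are red for all 10 genes, control 6 is reddest in the mitosis list, and the G1 regulator row is nearly blank, with a range of 0.45.

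The genes most like the set were named by the correlation of their log2 CPM with the mean of the 10 genes over the 17 libraries, which differ in depth and cell content. They were Tacc3 (Pearson's r 0.93), Kif22 (0.93), Lmnb1 (0.93), Kif23 (0.93), Nusap1 (0.93), Prc1 (0.92), Prr11 (0.92), Kif20a (0.92), Neil3 (0.91) and Bub1b (0.91). Most are spindle, kinesin, checkpoint or nuclear envelope genes. Of the 100 most similar genes, 41 were in the replication, mitosis and G1 lists, which hold 0.566% of all genes compared. Each member's own correlation with the mean of the other 9 ran from 0.75 for Rrm2 to 0.97 for Tpx2. Prm2, the spermatid protamine, had a correlation of 0.052 with the set. Over the 7 libraries with Prm2 under 1 CPM, Stmn1 (0.997), Cdca3 (0.990), Tacc3 (0.989), Prc1 (0.985) and Sept3 (0.984) were the most similar. Nusap1, Kif23, Iqgap3, Kif11 and Pimreg followed. These 7 include let-7d 3 and let-7e 1, where the mean of the 10 genes was 3.18 and 3.21. In the rest it ran from 1.16 (let-7e 4) to 1.95 (let-7d 6), so these correlations rest largely on let-7d 3 and let-7e 1.

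Because these genes moved together, their promoters were searched for the elements named above, on both strands of the 250 bases before the RefSeq start (GRCm38.p6). The table used held 8 of the 10 genes, all but Ccna2 and Tpx2. TTTGAA, the core of the CHR, occurred in 4 of 8 (Mki67, Top2a, Cdk1 and Ube2c) and in 11.1% of 11448 promoters of measured genes. CCAAT occurred in 7 of 8, all but Birc5, and in 35.9% of measured genes, and 2 or more CCAAT in 6 of 8 against 13.2%. Both motifs occurred in 4 of 8 and in 4.33% of measured genes. An E2F site (TTTCCCGC, TTTCGCGC, TTTGCCGC or TTTGGCGC) occurred in 1 of 8, Cdk1, and in 3.29%. No motif's letters contain those of another, and a missing match says only that the letters are not in the window.

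The 150 bases before the start are shown for Mki67 and Top2a, which hold both motifs, and for Birc5, which holds neither, with TTTGAA and CCAAT (or TTCAAA and ATTGG, the other strand) in capitals.
Mki67 promoter: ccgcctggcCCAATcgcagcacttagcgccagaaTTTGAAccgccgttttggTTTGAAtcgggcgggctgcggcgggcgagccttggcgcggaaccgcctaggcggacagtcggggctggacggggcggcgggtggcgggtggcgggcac
Top2a promoter: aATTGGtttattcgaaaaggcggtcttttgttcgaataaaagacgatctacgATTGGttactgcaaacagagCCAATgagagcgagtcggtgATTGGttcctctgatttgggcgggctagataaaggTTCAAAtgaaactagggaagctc
Birc5 promoter: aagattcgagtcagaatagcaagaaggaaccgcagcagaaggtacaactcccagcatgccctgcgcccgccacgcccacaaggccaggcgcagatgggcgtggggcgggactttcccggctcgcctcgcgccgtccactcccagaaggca
They lie at chr7:135716380-135716529 (minus strand), chr11:99024190-99024339 (minus strand) and chr11:117849087-117849236 (plus strand). Mki67 has its TTTGAA matches 116 and 98 bases before the start, and Top2a has one 23 bases before it on the other strand. The Birc5 promoter has neither motif in the window searched. Birc5 stood at 5.95 CPM in let-7d 3 and 4.94 CPM in let-7e 1. A link of motif to level was not tested.

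Let-7d against control addresses whether proliferation transcripts in the fat pad differ after injection of let-7d into the zygote. All 10 genes had a higher fitted level with let-7d, and none passed the correction over all genes. Mki67 had a log2 fold change of 0.94 (SE 0.402), with an edgeR p of 0.0333 and an adjusted p of 0.473. Ube2c had 0.62 (SE 0.429), Ccnb1 0.52 (SE 0.424), Ccna2 0.51 (SE 0.396), Top2a 0.39 (SE 0.470) and Cdk1 0.38 (SE 0.472). Tpx2 (0.31), Cenpf (0.31), Rrm2 (0.27) and Birc5 (0.25) were the lowest, and the adjusted p of the 10 genes reached 0.882.

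The median log2 fold change of the 10 genes was 0.39, against -0.039 over all genes. No gene of the whole table passed an edgeR adjusted p of 0.05 (0%), and 10.2% of genes had an unadjusted p below 0.05, as had 1 of the 10, Mki67. A log2 fold change above 0 was found for 42.5% of all genes and for 10 of 10 here. Since the 10 genes follow the same libraries, they do not count as 10 separate observations. The groups overlapped for all 10 genes, while 0.517% of all genes had let-7d and control libraries that did not overlap. DESeq2 called 0.0632% of the genes it adjusted and none of the 10, with a smallest adjusted p of 0.425, and limma-voom's smallest was 0.308.

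The size and direction of the let-7d difference depended on the libraries used, let-7d 3 among them. Without let-7d 3, only 4 of 10 genes were higher with let-7d, the median log2 fold change was -0.017, and Birc5 (-0.23), Cenpf (-0.15), Cdk1 (-0.076) and Top2a (-0.066) were the lowest. Mki67 kept a log2 fold change of 0.61 with an edgeR p of 0.139. In the other direction, without control 6 the median was 0.65 and Mki67 stood at 1.06.

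For let-7e the same 5 controls were used, so the 2 comparisons with control are not independent. All 10 genes again had a higher fitted level and none passed. Mki67 had a log2 fold change of 1.00 (SE 0.416), an edgeR p of 0.0286 and an adjusted p of 0.423. Ccna2 had 0.60 (SE 0.417), Top2a 0.58 (SE 0.488), Ube2c 0.53 (SE 0.452), Ccnb1 0.51 (SE 0.448) and Tpx2 0.47 (SE 0.444). Cenpf (0.44), Birc5 (0.44), Cdk1 (0.44) and Rrm2 (0.36) followed, and the largest adjusted p was 0.812.

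The median was 0.49 against -0.039 over all genes. Of all genes, 0% passed the correction, 10.5% had an unadjusted edgeR p below 0.05 (1 of 10 here, Mki67) and 41.9% had a log2 fold change above 0. The groups overlapped for all 10, and 0.632% of all genes had groups that did not. DESeq2 called 0.0987% of the genes it adjusted and none of the 10 (smallest adjusted p 0.369), and the smallest with limma-voom was 0.518. Without let-7e 1 the 10 genes stayed higher, with a median of 0.29 and Mki67 at 0.78. Without control 6 the median was 0.79 and Mki67 stood at 1.12.

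Let-7e against let-7d compares the let-7 groups, whose 2 microRNAs share the seed shown above. The log2 fold changes lay between -0.089 (Ube2c) and 0.19 (Birc5), with 8 genes higher and 2 lower with let-7e, where 46.9% of all genes were higher. The 95% intervals of the 10 genes reached from -0.96 to 1.18, and the smallest edgeR adjusted p was 0.983. None of the 10 had an unadjusted p below 0.05, as 6.67% of all genes had (3.35% of all genes higher with let-7e), and none had groups that did not overlap, as 0.237% of all genes had. The direction turned with the libraries used: all 10 genes were lower with let-7e without let-7e 1 (median -0.28), among late libraries alone (median -0.23) and with limma-voom (median -0.32), and all 10 were higher without let-7d 3 (median 0.40). All 10 were also lower without the 4 libraries with transcripts of neighbouring organs or epithelium, control 3, control 6, let-7d 1 and let-7d 5 (median -0.16). Without libraries with Prm2, a spermatid transcript, at 1 CPM or more they were lower too (median -1.58, Mki67 -1.54). The series term, described below, takes up let-7e 1 and 2 in that Prm2 fit. The Prm2 fit therefore sets let-7e 4 alone against let-7d 3 and 6. None passed under any of these settings.

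**Figure D3:**
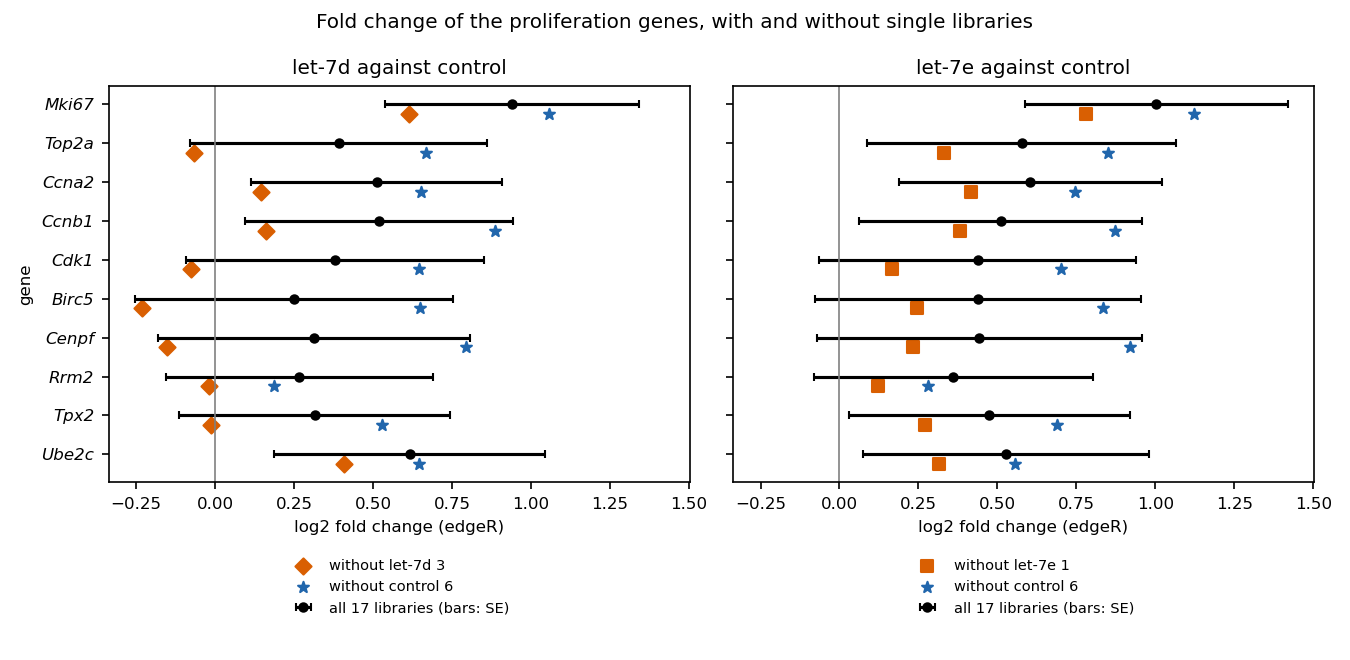
Log2 fold change (edgeR, horizontal axis) of each proliferation gene with let-7d and with let-7e against control; black points with SE bars are the fit to 17 libraries, orange marks leave out let-7d 3 (left) or let-7e 1 (right), and blue stars leave out control 6. The black points lie right of 0 in both panels, with Mki67 farthest at 0.94 and 1.00, and 6 of the 10 orange marks in the let-7d panel lie left of 0.

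Library identifiers in the labels form 2 number series. The early one holds replicates 1 and 2 of both let-7 groups and no control, and the late one holds the remaining 13 libraries. The fits above carry the series as a term. Between the series 3 of the 10 genes were higher and 7 lower in the early one (50.5% of all genes were higher), from -0.52 (Ccnb1) to 0.27 (Rrm2) log2, with a smallest edgeR adjusted p of 0.511. None passed, against 12.2% of all genes. The median was -0.096, and the direction turned with the libraries and the tool used. All 10 genes were lower in the early series without let-7e 1 (median -0.78) and with limma-voom (median -0.62). Without libraries with Prm2 at 1 CPM or more all 10 were higher (median 1.46), with let-7e 1 and 2 set against let-7e 4 alone. None passed in those fits either. Among late libraries alone, all 10 genes were higher than in control in both comparisons, with medians of 0.57 for let-7d and 0.31 for let-7e and Mki67 at 1.07 and 0.85. In those libraries the level of Mki67 was 13.4 ± 6.60 CPM (SD, n = 4) for let-7d and 11.5 ± 4.15 CPM (SD, n = 4) for let-7e.

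Transcripts of the testis, which lies beside this fat pad and holds dividing germ cells, were present in some libraries. Prm2, which packs the DNA of spermatids, stood at 331 CPM in control 6, at 19.5 CPM in let-7d 4, between 1.20 and 8.71 CPM in 8 others and below 1 CPM in the remaining 7, with 0 in let-7d 6 and 0.0838 CPM in let-7d 3. Control 6 also held Ldhc, the germ cell lactate dehydrogenase, at 282 CPM, Mael, a germ cell protein of transposon silencing, at 108 CPM and Ddx4, the germ cell helicase Vasa, at 46.0 CPM. Of 13 spermatid genes listed 12 were measured, and their summed level was 2189.6 CPM in control 6 against 45.0 CPM in the lowest control. The summed level ran from 40.1 to 130.0 CPM over let-7d and from 47.8 to 87.9 CPM over let-7e libraries. Odf2 made up most of the lowest sums, with 35.3 CPM in control 2 and 37.3 CPM in let-7d 6, and stood at 376 CPM in control 6. Of 16 spermatocyte and spermatogonia genes listed only 7 were measured, several of which somatic cells also express.

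In control 6 the proliferation genes stood at a median of 1.83 times the median of the other 4 controls, from 0.81 for Rrm2 and 1.01 for Ube2c to 2.87 for Ccnb1 and 3.01 for Cenpf. For 8 of 10 genes it was above all other controls, as it was for 25.2% of all genes. The mitosis list stood further out, with a median ratio of 2.17 and 35 of 43 genes above all other controls. Its extreme was Kif2c, a kinesin that depolymerizes microtubules, at 28.0 CPM in control 6 and 0.997 CPM as the median of the others, a ratio of 28.1. Bub1 and Ttk, kinases of the spindle checkpoint, stood at ratios of 9.36 and 8.88. DNA replication genes had a median ratio of 1.28, G1 regulators of 1.03 and cell cycle inhibitors of 1.02, near the 1.02 of all genes. The G1 list was wide, from 0.61 to 10.8, with 8 of 25 genes above all other controls. Its highest ratios included Cdc25c, a phosphatase that activates Cdk1, at 10.8, Skp2 at 8.89 and Foxm1 at 3.91. Control 6 was the highest of the 17 libraries for none of the 10 genes and for 18 of the 43 mitosis genes. The part of testis transcripts in the level of the proliferation genes in control 6 was not tested.

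**Figure D4:**
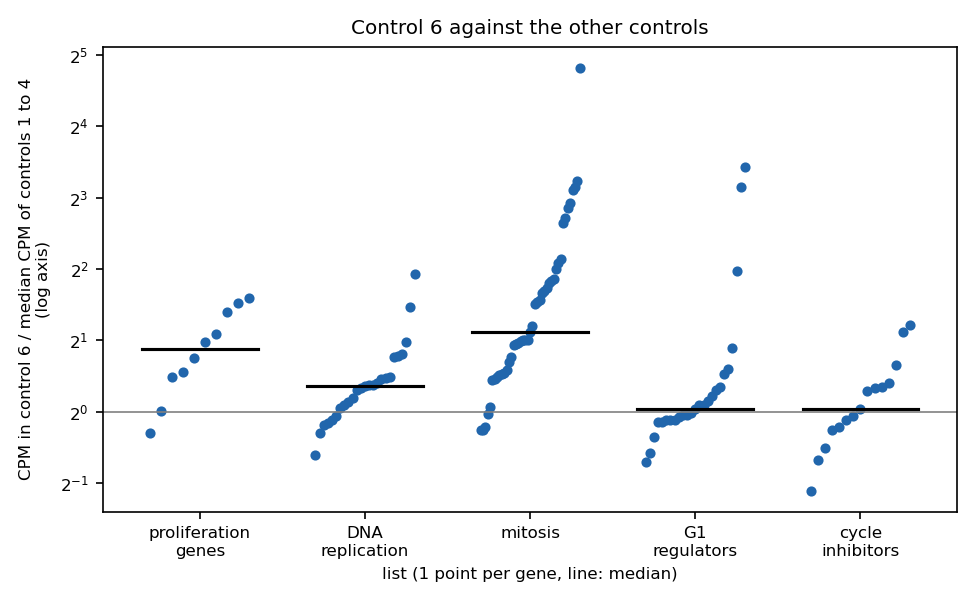
CPM in control 6 divided by the median CPM of controls 1 to 4 (log axis), 1 point per gene in 5 lists, with the median as a line. The proliferation genes centre at 1.83, the mitosis list at 2.17 with Kif2c at 28.1, and the G1 regulators and cycle inhibitors at 1.03 and 1.02. The highest G1 regulator is Cdc25c at 10.8.

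Leaving out libraries by their Prm2 level gave different answers at different limits. Without the 2 libraries at 10 CPM or more (control 6 and let-7d 4), a limit added after the data were seen, all 10 genes were higher in both comparisons, with medians of 0.60 for let-7d and 0.77 for let-7e and Mki67 at 0.98 and 1.10. At the limit of 1 CPM 10 libraries were left out and 2 control, 2 let-7d and 3 let-7e libraries remained, of which let-7e 4 is the only late let-7e library. With let-7d all 10 genes were then higher at a median of 1.11, the 2 let-7d libraries being let-7d 3 and 6. With let-7e all 10 were lower at a median of -0.51, from -0.064 for Mki67 to -0.76 for Top2a, in a fit where the series term rests on 1 late let-7e library. None of the 10 passed in either, with a smallest edgeR adjusted p of 0.297 and 0.793. In the libraries that remained, Mki67 stood at 5.27 and 6.67 CPM in those controls, 22.1 and 10.1 CPM with let-7d, and 22.6, 4.84 and 5.61 CPM with let-7e.

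Other cells of the pad were read from marker lists beside the proliferation genes. Adipoq, the adipocyte hormone adiponectin, stood at 1650.2 to 4489.8 CPM and Plin1, the lipid droplet coat protein, at 1679.6 to 3892 CPM over the 17 libraries, and no library lacked adipocyte transcripts. Let-7d 3, high in all 10 genes, had the highest macrophage list of all libraries (mean log2 CPM of 15 genes, 5.74), while let-7e 1 stood at 4.81, below most. Adgre1, which encodes the macrophage antigen F4/80, stood at 56.5 CPM in let-7d 3 and 26.0 CPM in let-7e 1, in a range of 17.2 to 56.7 CPM. A progenitor list of 10 genes stood at 6.90 in let-7d 3 and 6.37 in let-7e 1, in a range of 6.31 to 6.94. An endothelial list of 8 genes stood at 7.16 and 7.03 in these libraries, in a range of 6.57 to 7.40. An epithelium list of 11 genes stood at 2.52 in let-7e 1 and 0.0011 in let-7d 3, with the epithelial adhesion gene Epcam at 6.70 and 13.0 CPM, and it was higher in control 3 (6.27), let-7d 1 (3.76) and let-7d 5 (2.85). Those 3 libraries were not among the high ones for the proliferation genes, whose means there were 1.58, 1.52 and 1.44. Without these 3 and control 6 all 10 genes were higher in both comparisons, with medians of 0.89 and 0.73, and none passed. The part of macrophages, progenitors, endothelial cells or epithelium in the high levels of let-7d 3 and let-7e 1 was not tested.

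**Figure D5:**
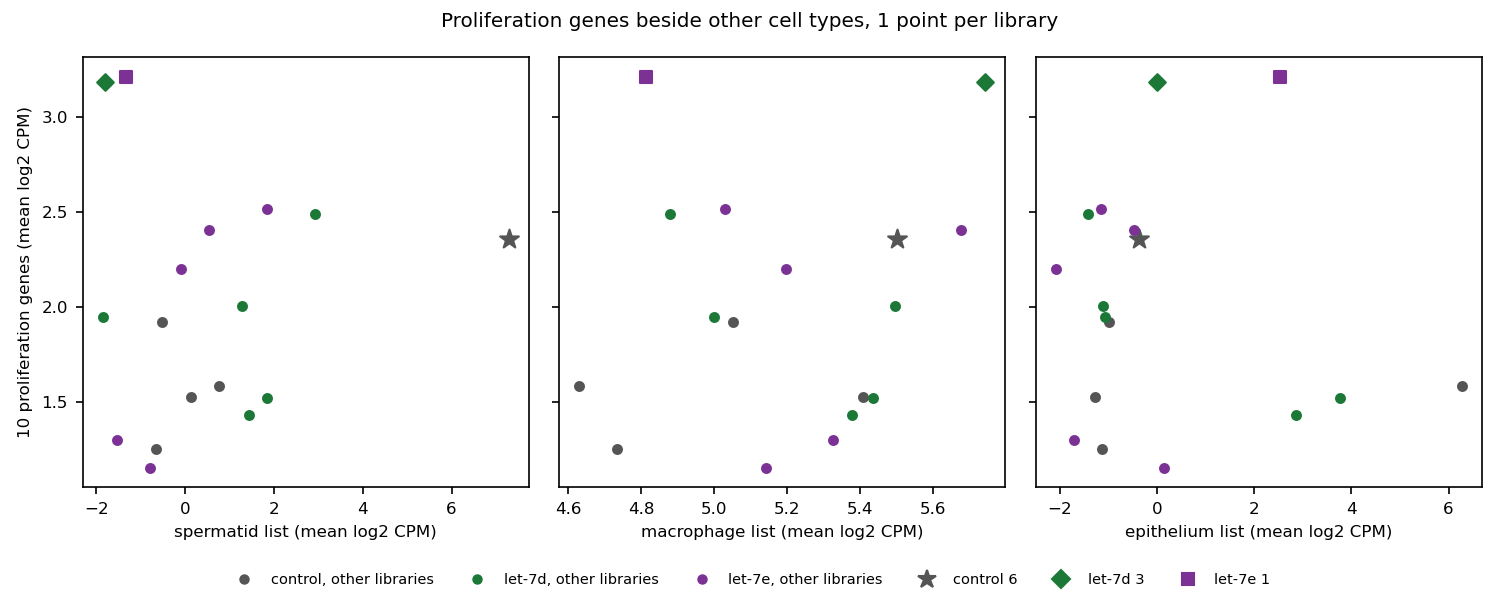
Mean log2 CPM of the 10 proliferation genes (vertical axis) against that of the spermatid, macrophage and epithelium lists (horizontal axes, log2 CPM), 1 point per library. Control 6 is alone at the right of the spermatid panel at 7.28, and let-7d 3 and let-7e 1, the 2 highest points, lie apart in the macrophage panel, at 5.74 and 4.81.

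The rest of the cell cycle program was described with 4 lists. Of 25 DNA replication genes 14 were higher and 11 lower with let-7d (median 0.051) and 13 higher and 12 lower with let-7e (median 0.0013), and none passed. The gene of smallest p with let-7d was Tk1, the thymidine kinase of S phase, at 5.52 ± 1.61 CPM (SD, n = 6) against 3.19 ± 0.989 CPM (SD, n = 5), a log2 fold change of 0.70 with an edgeR adjusted p of 0.473. Fen1, the flap nuclease of Okazaki fragments, came second at -0.50. With let-7e it was Mcm10, which loads replication factors, at 0.74 and Tk1 at 0.60. These list medians stand beside 0.39 and 0.49 for the 10 proliferation genes.

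Of the 43 mitosis genes 24 were higher and 19 lower with let-7d (median 0.050), and 28 higher and 15 lower with let-7e (median 0.15), and none passed. Cenpa, the histone that marks centromeres, averaged 4.19 ± 1.52 CPM (SD, n = 5) in controls, 5.95 ± 2.26 CPM (SD, n = 6) with let-7d and 5.85 ± 1.27 CPM (SD, n = 6) with let-7e, log2 fold changes of 0.59 and 0.59. Kif2c had log2 fold changes of -1.83 and -1.64, and without control 6, where it was at 28.0 CPM, these were 0.87 and 1.06. Its direction therefore rested on 1 control library.

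Of 25 G1 regulators 13 were higher and 12 lower with let-7d and 14 and 11 with let-7e, with medians of 0.019 and 0.024, and none passed. They included Cdc25a, a phosphatase that starts S phase (-0.49), and E2f2 (0.46) with let-7d, and the retinoblastoma relatives Rbl1 (0.27) and Rbl2 (-0.16) with let-7e. Of 15 inhibitors 11 were higher with let-7d (median 0.13) and 12 with let-7e (median 0.11), and none passed. With let-7d 4 of the 15 had an unadjusted edgeR p below 0.05 and were higher, which 3.11% of all genes were: Cdkn2b, or p15, at 0.85, Cdkn2c, or p18, at 0.66, Btg2 at 0.37 and Trp53 at 0.16, with adjusted p from 0.461 to 0.482. The control level of Cdkn2b was 10.4 ± 3.09 CPM (SD, n = 5), beside 18.7 ± 8.09 CPM (SD, n = 6) with let-7d and 11.8 ± 3.06 CPM (SD, n = 6) with let-7e. Its 2 highest libraries, let-7d 6 and let-7d 3 at 28.5 and 26.3 CPM, include the one that was high in all 10 proliferation genes. With let-7e the 2 inhibitors of smallest p were Wee1, the kinase that holds Cdk1 inactive, at -0.43 and Trp53 at 0.11.

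Of 9 cell cycle genes known as let-7 targets none passed either, with 3 higher and 6 lower with let-7d (median -0.17) and 2 higher and 7 lower with let-7e (median -0.12). The seed match was found in 4 of the 8 with a 3′ UTR, Cdc25a, Cdc34, E2f2 and Nras. Cdc25a stood at 14.2 CPM in control 6 and higher still in control 3, at 7.50, 5.87 and 7.76 CPM in controls 1, 2 and 4, and from 6.66 to 8.67 CPM over let-7d and 6.70 to 9.57 CPM over let-7e libraries. Its log2 fold changes were -0.49 with let-7d and -0.43 with let-7e, and without the 4 libraries with organ or epithelium transcripts they were -0.017 and 0.14. The other 3 had log2 fold changes with let-7d and let-7e of, in turn, Cdc34 -0.22 and -0.26, E2f2 0.46 and 0.25 and Nras 0.083 and 0.076. Between the let-7 groups Cdk6, the D cyclin kinase, was lower with let-7e at -0.79 with an edgeR adjusted p of 0.700, at 9.05 ± 1.30 CPM (SD, n = 6) against 17.2 ± 14.1 CPM (SD, n = 6), and let-7d 1 alone held 45.6 CPM. Without let-7d 1 that fold change was -0.39. Between the identifier series 3 of 25 G1 regulators and 1 of 15 inhibitors passed the correction, where 12.2% of all genes did. Fzr1, the Cdh1 activator of the anaphase-promoting complex, was lower in the early series (-0.51, edgeR adjusted p 0.00544), as were E2f4 (-0.34, adjusted p 0.0106) and Ccnd3 (-0.47, adjusted p 0.0157). Without let-7d 1 the edgeR adjusted p was 0.0525 for E2f4 and 0.0726 for Ccnd3. Lin54, the subunit of DREAM that binds the CHR, named after its value was seen, was higher (0.39, edgeR adjusted p 0.0473), and it no longer passed in 12 of the 17 fits that left out 1 library. None of these 4 genes passed with the replicate block, where the edgeR adjusted p was 0.282 for Fzr1, 0.215 for E2f4, 0.202 for Ccnd3 and 0.463 for Lin54. None passed without libraries with Prm2 at 1 CPM or more, where Fzr1 was at -0.14 with an edgeR adjusted p of 0.635 and the adjusted p of E2f4, Ccnd3 and Lin54 was 0.205, 0.375 and 0.405.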

How the data were processed

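Whole-fat-pad RNA was sequenced, and the deposited table holds whole-number read counts per Ensembl gene, which the authors had passed through a CPM filter whose threshold is not given in the sources used here. Alignment was with STAR to GRCm38.p6, per the submitters' processing notes, and the counting tool and its strand setting are not given in the sources used here. A second deposited table, of RPKM by its name, was not used. GENCODE M21 gave 16432 of 16452 identifiers a symbol. Sequences came from RefSeq (GRCm38.p6) and 3′ UTR sites from GENCODE M21.

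Depth was 12717365 to 28972306 counts per library, which sets the counting precision. In R 4.3.3, edgeR 4.0.16 (TMM, quasi-likelihood test, two-sided) was fitted to 17 libraries with group and identifier series as terms. P-values were adjusted by Benjamini-Hochberg over 16452 genes with a threshold of 0.05, and filterByExpr removed 0 genes. Log2 CPM had a prior count of 2. The alternatives used DESeq2 1.42.0, limma 3.58.1 (voom with quality weights), DESeq2 size factors, a filter at a mean of 1 CPM, a replicate block, no series term, late libraries only, libraries left out singly, by Prm2 (1 CPM) or by organ transcripts. Leaving out libraries with Prm2 at 10 CPM, or let-7d 3 with let-7e 1, was chosen after the data were seen.

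The 10 genes and all lists were chosen with earlier results of these data known. Named were the 10 genes, the 2 genes of smallest unadjusted p in each cell cycle list and comparison, let-7 targets, the 10 most similar genes, and markers where a library stood apart. Genes named for control 6, the inhibitors Btg2 and Trp53 with let-7d, and Lin54 were chosen after their values were seen. The fits were tested on simulated data, with fold changes planted in genes drawn independently of each other. The simulated data held no series effect and no outlying libraries, so they do not cover genes that move together. No 2 libraries were duplicates: between the closest ones, let-7d 3 and 6, chi-square over its degrees of freedom was 14.6.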

Additional observations from a re-analysis of the deposited data

How the results depend on the processing

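Counts of genes past an adjusted p of 0.05 were 0 in the 3 group comparisons. With the DESeq2 Wald test they were 10 for let-7d against control, 15 for let-7e against control and 14 for let-7e against let-7d, and without libraries with Prm2 at 1 CPM or more they were 189, 0 and 5. Early against late gave 2005, with 3513 under limma-voom, 44 with the replicate block, 14 without libraries with Prm2 at 1 CPM or more and 1260 to 2326 when 1 library was left out, lowest without let-7d 1. No proliferation gene passed under any of these settings in any comparison. Some settings use fewer libraries, and the cause of these shifts was not tested.

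Directions turned as follows. For let-7d against control, leaving out 1 library gave log2 fold changes of -0.066 to 0.67 for Top2a, -0.076 to 0.65 for Cdk1, -0.23 to 0.65 for Birc5, -0.15 to 0.79 for Cenpf, -0.020 to 0.60 for Rrm2 and -0.014 to 0.53 for Tpx2, each lowest without let-7d 3, and Birc5 was -0.013 without let-7d 3 and let-7e 1. For let-7e against control without libraries with Prm2 at 1 CPM or more, the values were -0.064 (Mki67), -0.76 (Top2a), -0.48 (Ccna2), -0.51 (Ccnb1), -0.70 (Cdk1), -0.41 (Birc5), -0.56 (Cenpf), -0.20 (Rrm2), -0.56 (Tpx2), -0.50 (Ube2c) and -0.29 (Mcm10). In every fit at that Prm2 limit let-7e 4 is the only late let-7e library, and the series term takes up let-7e 1 and 2. Values there for let-7e, and for early against late, therefore rest on let-7e 4. Kif2c turned positive for let-7d and let-7e with limma-voom (0.58 and 0.40), without libraries with Prm2 at 1 CPM (1.20 and 0.30) or 10 CPM (0.82 and 1.04), without the 4 libraries with organ transcripts (0.99 and 0.97) and without control 6 (0.87 and 1.06). Leaving out 1 library gave it -2.29 to 0.87 with let-7d and -1.92 to 1.06 with let-7e. Wee1 with let-7e was 0.12 and Cdc25a 0.14 without those 4 libraries, and E2f2 with let-7e was -0.25 without libraries with Prm2 at 1 CPM or more. For let-7e against let-7d, Birc5 was -0.21 with limma-voom, -0.027 among late libraries, -1.55 without libraries with Prm2 at 1 CPM or more, -0.14 without those 4 libraries and -0.19 to 0.57 when 1 library was left out, and Ube2c was 0.0040 without libraries with Prm2 at 10 CPM or more and -0.48 to 0.099 when 1 library was left out. For early against late, Ccnb1 was 0.63 with the replicate block and 0.93 without libraries with Prm2 at 1 CPM or more, and Rrm2 was -0.29 with limma-voom, -0.27 without let-7d 3 and let-7e 1 and -0.45 to 0.51 when 1 library was left out.

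Same-numbered libraries were not more alike than others. Their median correlation was -0.012, in a range of -0.44 to 0.41, against a median of -0.011 for other pairs. Of 17 libraries, 1 correlated best with its own number. Whether the numbers pair samples by sire or litter cannot be told, since the labels name neither. With the replicate block the medians of the 10 genes were 0.20 for let-7d and 0.25 for let-7e, with Mki67 at 0.88 and 0.90. Depth limits the lowest genes most, with Birc5 at 13 reads in its lowest library. In let-7e against let-7d and early against late, the other proliferation genes are given as counts and medians only. Of the values of the single genes named, 1426 kept their direction and side of the threshold, 46 changed sign, 27 lost the call and 1 gained it, Cdkn2b with let-7d at 1.27 without libraries with Prm2 at 1 CPM or more.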
